A study of Mus musculus with 6 samples.

Results

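The fatty acid oxidation genes described here are 10 genes, of 30323 gene IDs in the deposited table, that were chosen by symbol for their steps in the use of fatty acids. They cover uptake and intracellular binding (Cd36 and Fabp3), the carnitine shuttle (Cpt1a, Cpt1b and Cpt2), the acyl-CoA dehydrogenases (Acadvl, Acadl and Acadm) and the mitochondrial trifunctional protein (Hadha and Hadhb). Whole hearts of mouse embryos at day 9.5 gave 3 libraries labelled as a Cdc42 knockout, which the series' design text gives as a myocardial knockout (MCKO), and 3 control libraries labelled as C57BL/6. The labels give neither the Cre driver, the deleted exons nor the strain of the MCKO embryos, and they do not tie a library to one heart or litter, so p-values rest on the spread between these libraries alone, which may be technical.

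Long-chain fatty acids enter a cell with the help of the membrane protein CD36, and the cytosolic protein FABP3 carries them in muscle. CPT1 on the outer mitochondrial membrane joins them to carnitine, CPT2 on the inner membrane reverses the step, and each turn of beta-oxidation then opens with an acyl-CoA dehydrogenase. The adult heart draws most of its energy from this pathway, whereas the embryonic heart relies more on glucose and lactate.

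The library totals were 23883877 to 34246477 counts in MCKO and 19256840 to 32169289 in controls. Cdc42 itself was lower in MCKO hearts, at 253, 245 and 245 CPM against 390, 371 and 413 CPM in control hearts (log2 fold change -0.66, adjusted p = 2.93e-06 by edgeR). CPM here is a gene's count over its library total, on the customary scale and after TMM scaling, which sets libraries to a common level over most genes, and log2 fold changes are MCKO over control. Every one of the 16 cardiomyocyte markers passed the filter on low counts, with Myh7 at 10356 ± 329 CPM in MCKO and 6203 ± 466 CPM in controls (SD, n = 3 each). The hearts were whole, so endothelial, red cell and other RNA is included, and fewer cells of a type cannot be told apart from less RNA per cell.

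The 10 genes did not change in a single direction. All 10 genes passed the filter on low counts, and 7 were called at an adjusted p under 0.05, beside 58.4% of the 14697 genes tested. Of these, 2 were higher in MCKO (Cd36 and Cpt1b), where 29.3% of all tested genes were, and 5 were lower (Cpt1a, Cpt2, Acadvl, Hadha and Hadhb), where 29.1% were. Acadm, Acadl and Fabp3 were not called. The median log2 fold change of the 10 genes was -0.13, against 0.00057 for all tested genes. The groups of libraries did not overlap for the 7 called genes, beside 64.7% of all tested genes. In 2 of them MCKO stood above control, as in 32.4% of tested genes, and in 5 below, as in 32.3%. Of the 10, Cd36 alone was called with a change of at least 2-fold, as 11.0% of tested genes were, with 7.03% higher and 3.99% lower.

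**Figure D1:**
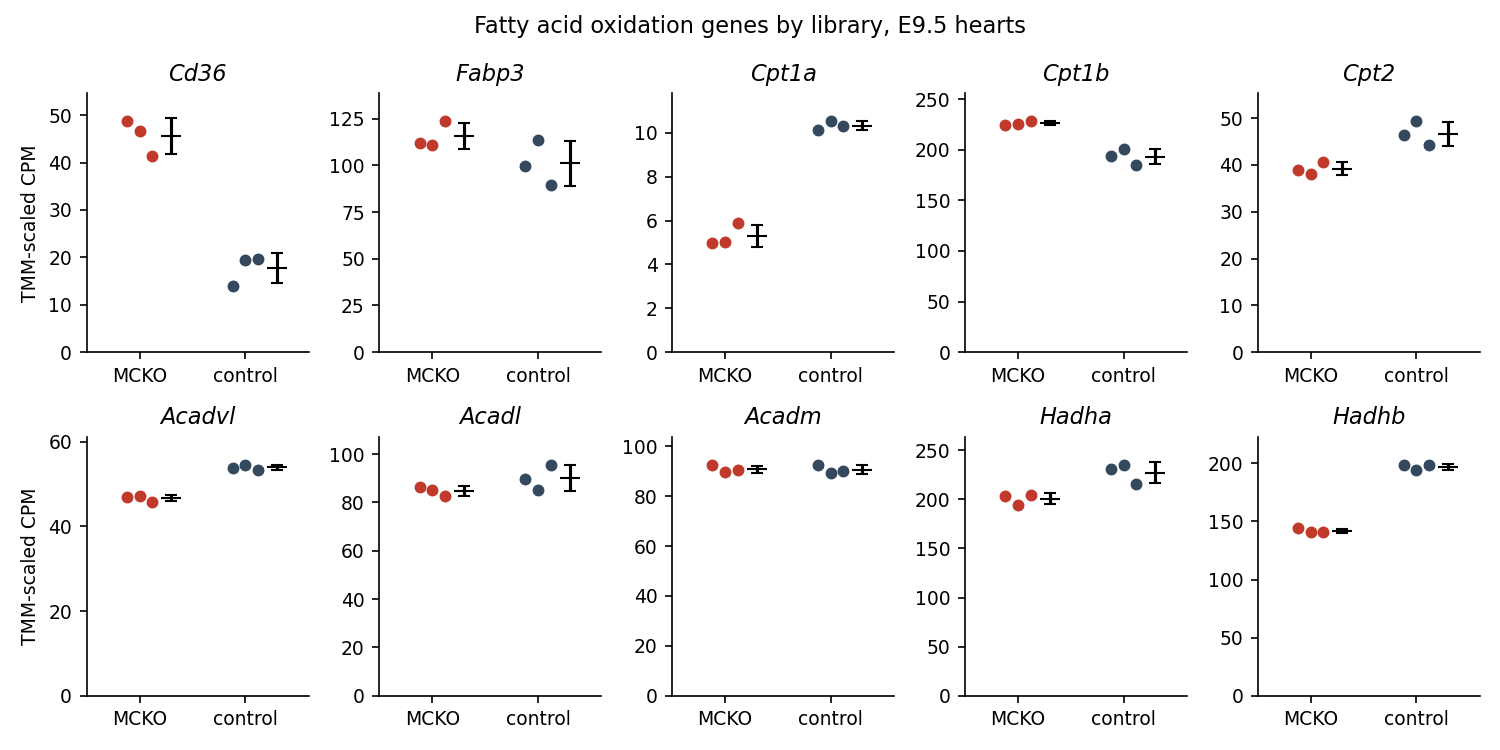
TMM-scaled CPM of each gene, with 1 point per library, MCKO in red and control in dark blue, and the mean with its SD as a black bar (n = 3 each). Each axis starts at 0. Cd36 sits at 41.4 to 48.7 CPM in MCKO and 14.0 to 19.6 CPM in controls, and the points of Acadm, Acadl and Fabp3 overlap between the groups.

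Cd36, a fatty acid translocase of endothelium, muscle and macrophages, showed the largest change of the 10. It had 48.7, 46.7 and 41.4 CPM in MCKO hearts, against 14.0, 19.5 and 19.6 CPM in control hearts. The lowest MCKO library stood above the highest control library. Its level was 2.58-fold higher in MCKO (log2 fold change 1.37, SE 0.13, edgeR adjusted p = 6.10e-05), and 93.3% of the tested genes changed by no more than this in either direction. Cd36 (ENSMUSG00000002944) spans 17781690 to 17888801 of chromosome 5, minus strand, in GRCm38. None of the 3645 stretches of 31 bases in its GENCODE transcripts occurs in those of another gene.

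Markers of other cells in which CD36 is known were measured in the same libraries. Of 16 endothelial and endocardial markers, 12 rose and 2 fell, beside 29.3% higher and 29.1% lower among all tested genes. Their summed level was 1832 to 1857 CPM in MCKO and 1472 to 1535 CPM in controls, with none of them at 0. Flt1, a VEGF receptor, averaged 169 ± 1.4 CPM in MCKO and 65.7 ± 1.5 CPM in controls, a log2 fold change of 1.36 (SE 0.040, adjusted p = 1.20e-08). Pecam1, an adhesion molecule of endothelium, had a log2 fold change of 0.70 (SE 0.039), while Npr3, a receptor of endocardium, fell by 0.92 (SE 0.053). All 12 primitive red cell markers rose, with a summed level of 8026 to 8581 CPM in MCKO and 3603 to 3962 CPM in controls. The 9 macrophage markers summed to 6.22 to 7.61 CPM in MCKO and 8.92 to 10.3 CPM in controls. Of the 5 macrophage markers tested 2 fell, Csf1r and Mrc1, and the call of Mrc1 was lost with no filter, with DESeq2, with the replicate block and without any one library other than control replicate 2 (adjusted p = 0.0511 to 0.179). Adgre1, a defining marker of macrophages named after its value was seen, was at 0 in all 3 MCKO libraries and had 1 to 2 counts in each control library. The part of cell makeup in the higher Cd36 level was not tested.

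The RefSeq table of promoters held 9 of the 10 genes, without Cpt1b. The 250 bases before the RefSeq start of Cd36 are shown because it changed most, with those before the RefSeq start of Cpt1a, which had the largest fall, cut where a GENCODE exon of Cpt1a begins at the end of the window. Both starts lie inside the gene spans given here, since GENCODE also has transcripts of Cd36 and of Cpt1a that start further upstream. Which starts were in use in these hearts was not tested. Peroxisome proliferator-activated receptors (PPARs), which are known to act on many genes of this pathway, bind direct repeats of AGGTCA. Capitals mark every AGGTCA on either strand and, in Cd36, a match with 2 mismatches to a direct repeat of AGGTCA with 1 base between the copies, on the opposite strand, which does not overlap the single AGGTCA. The Cd36 window is chr5:17835897-17836146 on the minus strand and the Cpt1a window chr19:3323051-3323284 on the plus strand, both in RefSeq's GRCm38.p6.
Cd36: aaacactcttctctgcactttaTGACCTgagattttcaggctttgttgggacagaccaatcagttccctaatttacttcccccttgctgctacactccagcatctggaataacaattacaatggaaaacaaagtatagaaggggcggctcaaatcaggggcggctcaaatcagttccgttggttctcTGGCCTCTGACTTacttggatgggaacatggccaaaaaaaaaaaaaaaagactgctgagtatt
Cpt1a: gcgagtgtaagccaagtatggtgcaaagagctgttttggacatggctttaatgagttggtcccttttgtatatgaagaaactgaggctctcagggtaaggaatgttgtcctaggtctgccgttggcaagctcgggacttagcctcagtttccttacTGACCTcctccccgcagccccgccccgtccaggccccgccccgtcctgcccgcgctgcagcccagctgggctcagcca

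Of the 9 promoters, 4 held AGGTCA (Cpt1a, Acadm, Acadvl and Cd36), against 13.8% of 27025 promoters of the same length, 1 per gene. The repeat with up to 2 mismatches was in Cd36 alone, against 3.18% of all promoters. The core ACGTG, bound by hypoxia-inducible factors, was in Acadvl alone, against 16.6% of all. TCAAGGTCA with up to 1 mismatch, the element of oestrogen-related receptors, was in 0 of the 9, against 6.35% of all. GGGCGG was in 6, against 32.9%, and CCAAT in 2, against 34.5%. TATAAA was in 0, against 13.0%, and CAGCTG in 1, against 12.8%. Of the 4 genes with AGGTCA, Cd36 was called higher, Cpt1a and Acadvl lower, and Acadm was not called. A link of these letters to the changes was not tested. A match in these letters is a description of the window and not a site.

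Fabp3, the fatty acid binding protein of heart and skeletal muscle, had 112, 111 and 124 CPM in MCKO hearts, against 99.6, 114 and 89.6 CPM in control hearts. The groups overlapped, since control replicate 2 lay above MCKO replicates 1 and 2. Its log2 fold change was 0.20 (SE 0.086, adjusted p = 0.0792). Without control replicate 2 it was 0.29 and called (adjusted p = 0.00404). Fabp3 (ENSMUSG00000028773, plus strand of chromosome 4 at 130308595 to 130315463) shares 35.2% of its 31-base stretches with the pseudogene Fabp3-ps1, which held 12 to 25 counts in MCKO libraries and 8 to 21 in control libraries, and 50.1% with any other gene, Zcchc17 and Gm10570 on the opposite strand included. Its own counts were 2798 to 3763 in MCKO libraries and 2225 to 2956 in control libraries.

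Within a library the ratio of counts of one gene to those of another does not depend on how libraries are scaled. For Fabp3 over Cd36 the ratio was 2.30, 2.37 and 2.99 in MCKO hearts, against 7.11, 5.84 and 4.56 in control hearts. The groups did not overlap, and the difference of the log2 ratio was -1.18 (exact permutation p = 0.1, 2-sided, the smallest that 3 against 3 allows). Fabp3 thus stood lower relative to Cd36 in all 3 MCKO libraries than in any control library.

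Cpt1a encodes the CPT1 form found most widely and dominant in liver, and Cpt1b the form of muscle. They were called in opposite directions. Cpt1a had 4.98, 5.03 and 5.89 CPM in MCKO hearts, against 10.1, 10.5 and 10.3 CPM in control hearts, from 127 to 167 counts per MCKO library and 206 to 340 per control library. All 3 MCKO libraries lay far below all 3 control libraries. The level in MCKO was 0.513 of the control level (log2 fold change -0.96, SE 0.10, adjusted p = 3.78e-05). Cpt1a (ENSMUSG00000024900) spans 3322334 to 3385733 of chromosome 19, plus strand.

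Cpt1b was much the more abundant of the pair in both groups. It had 225, 225 and 228 CPM in MCKO hearts, against 193, 200 and 185 CPM in control hearts. Every MCKO library was above every control library, by a small margin. This was an increase of 17.1% (log2 fold change 0.23, SE 0.041, adjusted p = 0.00114). Cpt1b made up 97.8, 97.8 and 97.5% of the counts of the pair in MCKO hearts, against 95.0, 95.0 and 94.7% in control hearts. The log2 ratio of Cpt1b to Cpt1a was 5.42 ± 0.12 in MCKO and 4.22 ± 0.049 in controls (SD, n = 3 each), a difference of 1.19 (exact permutation p = 0.1, the smallest possible).

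The Cpt1b value carries a limit of annotation. Cpt1b (ENSMUSG00000078937, minus strand of chromosome 15 at 89416405 to 89425863) lies inside a read-through gene, Gm44502, that joins it to its upstream neighbour Chkb, and 79.7% of its 31-base stretches also occur there. Gm44502 was not analysed here, so how its reads were assigned is not known. Chkb, a choline kinase gene named after its value was seen, averaged 65.6 ± 0.69 CPM in MCKO and 43.6 ± 2.4 CPM in controls, with a log2 fold change of 0.59 (SE 0.052, adjusted p = 1.22e-05). The part of read-through transcripts in the Cpt1b value was not tested.

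Cpt2, the second carnitine palmitoyltransferase, had 38.8, 38.1 and 40.7 CPM in MCKO hearts, against 46.3, 49.3 and 44.3 CPM in control hearts. The groups did not overlap. It fell to 0.842 of the control level (log2 fold change -0.25, SE 0.057, adjusted p = 0.00431). Cpt2 (ENSMUSG00000028607) spans 107903981 to 107923610 of chromosome 4, minus strand, and shares no 31-base stretch with another gene.

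Other genes of carnitine handling, from a list of 7 found in the table, gave 3 falls and no rise among the 6 tested, with a median of -0.19. Among all tested genes 29.1% were lower and 29.3% higher. Slc25a20, the translocase that carries acylcarnitines across the inner mitochondrial membrane, averaged 29.5 ± 1.4 CPM in MCKO and 38.5 ± 0.74 CPM in controls, a log2 fold change of -0.38 (SE 0.055, adjusted p = 0.000274). Crat, carnitine acetyltransferase, averaged 37.5 ± 1.5 CPM in MCKO and 55.3 ± 4.6 CPM in controls (log2 fold change -0.56, SE 0.067). The fall of Aldh9a1, of carnitine synthesis, was -0.17 (SE 0.050), a call lost without MCKO replicate 1, MCKO replicate 2 or control replicate 1 (adjusted p = 0.0524 to 0.0604). With library totals only, or without control replicate 2, 5 of the list were called lower.

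The acyl-CoA dehydrogenases differ in the chain length they accept, from very long (Acadvl) through long (Acadl) to medium (Acadm). Acadvl had 47.0, 47.2 and 45.9 CPM in MCKO hearts, against 53.9, 54.6 and 53.4 CPM in control hearts. The 2 groups were well apart, with little spread inside either. Its log2 fold change was -0.21 (SE 0.044, adjusted p = 0.00294). Acadvl (ENSMUSG00000018574, minus strand of chromosome 11 at 70010183 to 70015411) overlaps the gene Dvl2 on the opposite strand, which shares 33.2% of its 31-base stretches. Dvl2, named after its value was seen, had a log2 fold change of 0.42 (SE 0.085, adjusted p = 0.00258). The kit was a stranded one, but the labels do not say whether counting used strand. How reads of the overlap were assigned to the 2 genes is therefore not known.

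Acadl and Acadm were not called. Acadl had 86.4, 85.2 and 82.5 CPM in MCKO hearts, against 89.6, 85.0 and 95.6 CPM in control hearts. Its groups overlapped through control replicate 2, and the log2 fold change was -0.09 (SE 0.052, adjusted p = 0.167). The call appeared with library totals only (-0.15, adjusted p = 0.0364) and without control replicate 2 (-0.13, adjusted p = 0.0414). Acadm had 92.4, 89.8 and 90.4 CPM in MCKO hearts, against 92.7, 89.6 and 90.0 CPM in control hearts, nearly the same values. Its log2 fold change was 0.0021 (SE 0.041, adjusted p = 0.969). Acadl is ENSMUSG00000026003 on chromosome 1 (66830839 to 66863277, minus strand), and Acadm is ENSMUSG00000062908 on chromosome 3 (153922357 to 153944632, minus strand).

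**Figure D2:**
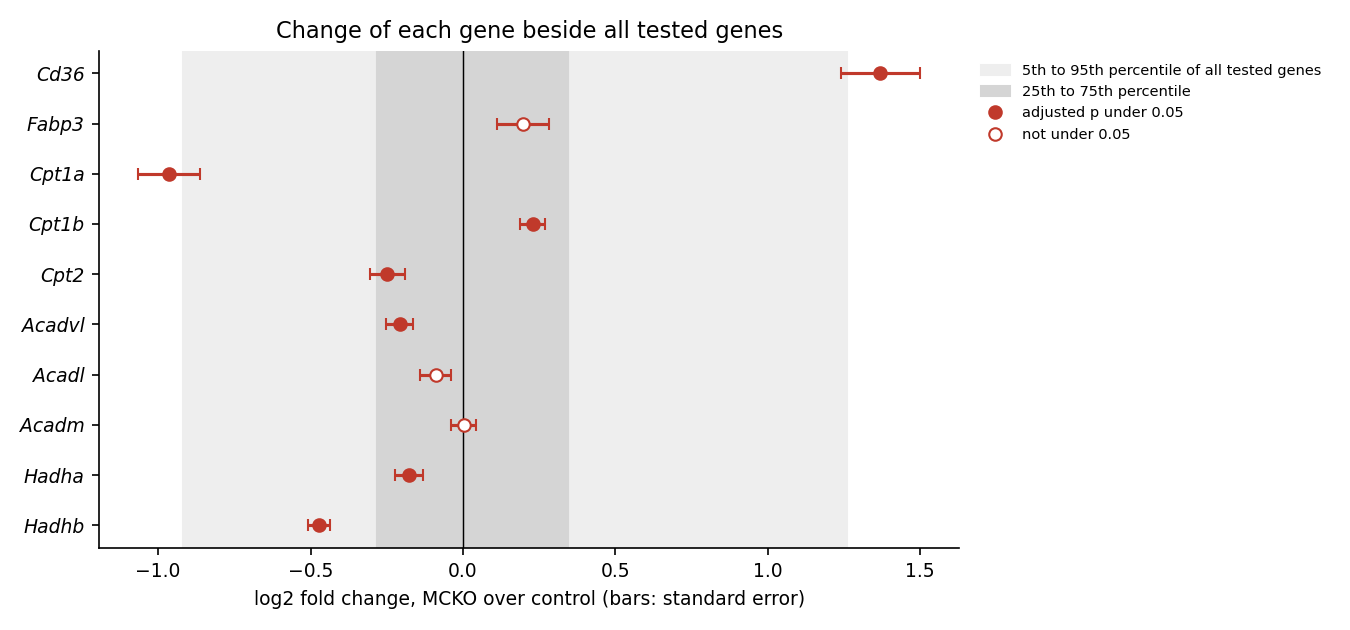
Log2 fold change of each gene, MCKO over control, with its standard error as a bar, filled points for genes with an adjusted p under 0.05 and open points for the others. Grey bands give the middle of all 14697 tested genes, from the 5th to the 95th and from the 25th to the 75th percentile. Cd36 and Cpt1a lie outside the wide band at 1.37 and -0.96, and the other 8 lie within it.

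Hadha and Hadhb encode the alpha and beta subunits of the trifunctional protein, which carries out the remaining steps of long-chain beta-oxidation. Hadhb had 144, 141 and 141 CPM in MCKO hearts, against 199, 194 and 198 CPM in control hearts. The MCKO values lay about as close together as the control values and far below them. Hadhb fell to 0.721 of the control level (log2 fold change -0.47, SE 0.037, adjusted p = 5.99e-06). Hadhb (ENSMUSG00000059447, plus strand of chromosome 5 at 30155248 to 30184593) shares 23.7% of its 31-base stretches with any other gene, and 19.5% with the pseudogene Gm13910. Gm13910 held at most 6 counts in an MCKO library and 7 in a control library. The counts of the other genes that share stretches, Gm9108 included, were not examined.

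Hadha had 203, 194 and 205 CPM in MCKO hearts, against 231, 235 and 215 CPM in control hearts. The groups did not overlap, but the gap was narrow between MCKO replicate 3 and control replicate 3. The log2 fold change was -0.18 (SE 0.046, adjusted p = 0.00857), and the call was lost without MCKO replicate 2 (-0.15, adjusted p = 0.0536). The ratio of Hadha to Hadhb counts was 1.41, 1.38 and 1.45 in MCKO hearts, against 1.16, 1.21 and 1.08 in control hearts. All 3 MCKO ratios stood above all 3 control ratios, with a difference of 0.30 on the log2 scale (exact permutation p = 0.1, the smallest possible). With the 3 ratios of this kind adjusted together, each p remained 0.1.

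The 2 subunit genes start back to back. Hadha (ENSMUSG00000025745) spans 30118304 to 30155162 of chromosome 5, minus strand, and 85 bases separate its annotated start from that of Hadhb. These bases are shown because both genes, whose counts fell by unequal amounts, begin at their edges in GENCODE. The RefSeq starts of both genes lie inside the spans given here, and which starts were in use was not tested. Capitals mark GGGCGG on the plus strand, the letters of the GC box, which is in 32.9% of all promoters on either strand. The stretch is chr5:30155163-30155247, plus strand, from RefSeq's GRCm38.p6.
Hadha-Hadhb: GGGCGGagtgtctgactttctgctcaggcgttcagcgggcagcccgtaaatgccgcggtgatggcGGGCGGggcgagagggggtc

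**Figure D3:**
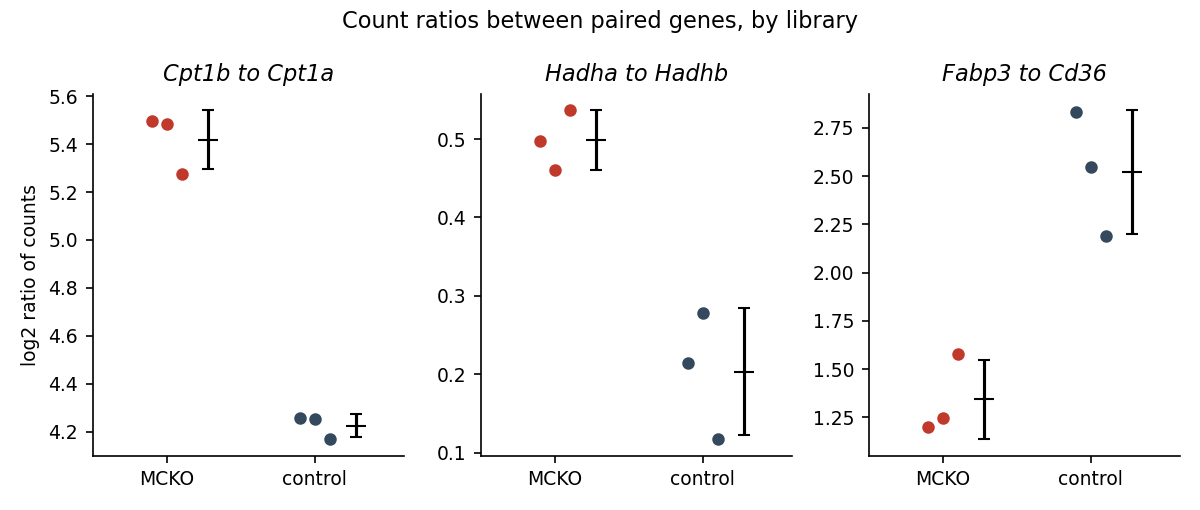
Log2 ratio of counts within each library for Cpt1b to Cpt1a, Hadha to Hadhb and Fabp3 to Cd36, with 1 point per library and the mean with its SD as a black bar (n = 3 each). The axes do not start at 0. The MCKO points lie above the control points in the first pair of panels, by 1.19 and 0.30, and below them in the last, by 1.18.

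Of 23 tested genes listed for mitochondrial beta-oxidation and linked acyl-CoA steps, 11 fell and 4 rose, with a median of -0.12. Among all tested genes 29.1% were lower and 29.3% higher. The list also holds genes of other acyl-CoA breakdown, Pcca and Acadsb among them, so these counts are not of beta-oxidation alone. Acaa2, a thiolase that ends each turn, averaged 85.1 ± 3.2 CPM in MCKO and 107.7 ± 3.0 CPM in controls, a log2 fold change of -0.34 (SE 0.046, adjusted p = 0.000186). Etfb, a subunit of the flavoprotein that takes electrons from the dehydrogenases, averaged 88.7 ± 2.1 CPM in MCKO and 115 ± 9.7 CPM in controls (-0.38, SE 0.061). Pcca, of propionyl-CoA carboxylase, fell by 0.63 (SE 0.058). Acadsb, a dehydrogenase of short branched chains, rose by 0.54 (SE 0.076). Of the 23, none changed by 2-fold with a call.

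To compare levels between genes, counts were divided by the length of the longest transcript in GENCODE's basic set. They were then rescaled so that every library had the same sum. Transcripts outside the basic set were not used for lengths. On this scale Fabp3 was highest in both groups, at 320 ± 14 in MCKO and 287 ± 29 in controls (SD, n = 3 each). Hadhb followed in controls, at 226 ± 7.4, with Cpt1b next at 156 ± 3.2. In MCKO this order was turned round, with Cpt1b at 178 ± 1.6 and Hadhb at 158 ± 4.1, and the libraries of the pair did not overlap in either group. Acadl and Acadm overlapped in both groups, and no other neighbours in the order did.

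At the low end stood Cd36, at 30.7 ± 3.0 in MCKO and 12.2 ± 2.2 in controls, and Cpt1a, at 2.80 ± 0.22 in MCKO and 5.61 ± 0.090 in controls. With the shortest transcript instead, Cpt2 moved above Acadvl in MCKO and above Acadm and Acadvl in controls, and the rest kept their order. Summed over the genes of a step, the trifunctional protein held 272 ± 6.0 in MCKO and 358 ± 6.1 in controls. The acyl-CoA dehydrogenases held 252 ± 8.1 in MCKO and 273 ± 12 in controls. Uptake and binding held 351 ± 11 in MCKO and 300 ± 29 in controls. The carnitine shuttle held 219 ± 0.87 in MCKO and 208 ± 4.6 in controls. Of this, Cpt1b made up 178 ± 1.6 in MCKO and 156 ± 3.2 in controls, while Cpt1a and Cpt2 were both called lower.

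**Figure D4:**
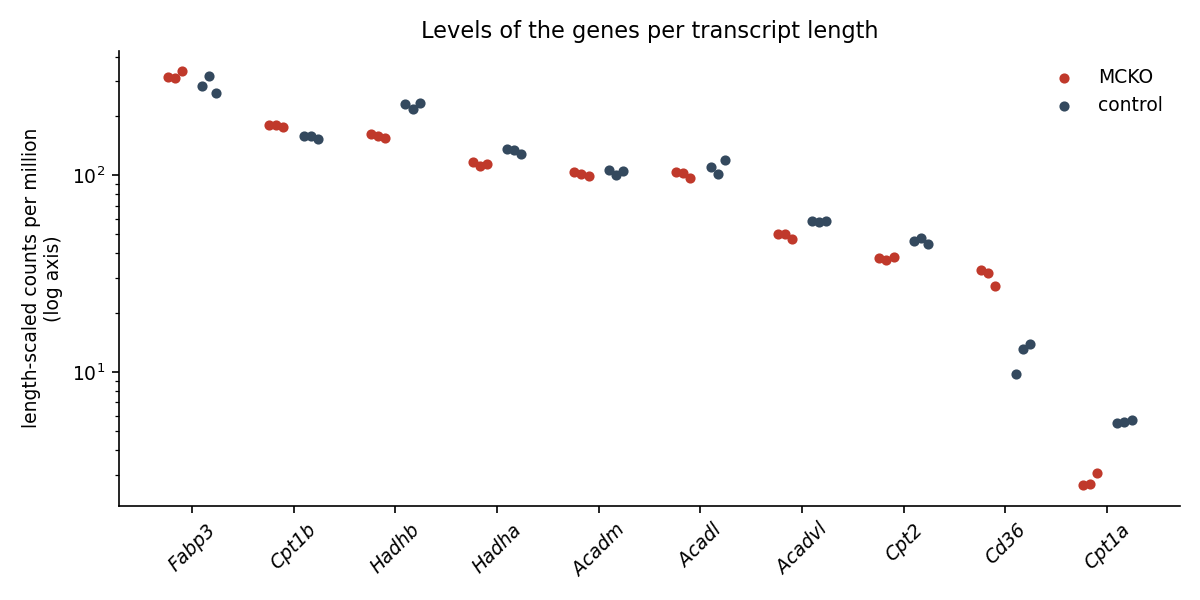
Depth-scaled counts per transcript length, on a log axis, for each gene in order of its MCKO mean, with 1 point per library, MCKO in red on the left and control in dark blue on the right. Fabp3 is highest at 320 in MCKO and 287 in controls, Cpt1a lowest at 2.80 in MCKO and 5.61 in controls.

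Of 16 tested genes that bring fatty acids to the pathway or activate them, 5 rose and 5 fell, with a median of -0.03. Both counts are near the shares among all tested genes, 29.3% higher and 29.1% lower. Vldlr, a receptor for lipoproteins rich in triglyceride, averaged 236 ± 4.1 CPM in MCKO and 30.3 ± 0.86 CPM in controls, a log2 fold change of 2.96 (SE 0.045, adjusted p = 3.93e-10). Lpl, the lipase that releases fatty acids from lipoproteins, averaged 66.3 ± 2.8 CPM in MCKO and 135 ± 12 CPM in controls (-1.02, SE 0.067). Acsl5, an acyl-CoA synthetase, fell by 0.90 (SE 0.051). Mgll, monoglyceride lipase, rose by 0.82 (SE 0.087).

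Regulators of the pathway gave 7 rises and 8 falls among 24 tested, again near those shares, with a median of -0.02. Lpin1, which makes diacylglycerol and also acts with PPAR-alpha, averaged 22.8 ± 1.5 CPM in MCKO and 7.19 ± 0.48 CPM in controls, a log2 fold change of 1.66 (SE 0.083, adjusted p = 3.39e-07). Ppard, the gene of PPAR-delta, averaged 39.1 ± 0.49 CPM in MCKO and 19.9 ± 2.3 CPM in controls (0.98, SE 0.082). Ppara, named after its value was seen, was at 0.509 CPM in MCKO and 0.738 CPM in controls and was not called (adjusted p = 0.0886). Acaca, whose product makes the CPT1 inhibitor malonyl-CoA, fell by 0.45 (SE 0.043). Hif1a, an oxygen-regulated transcription factor gene, averaged 220 ± 7.1 CPM in MCKO and 416 ± 46 CPM in controls. With the replicate block, or without MCKO replicate 2, 5 of these regulators were called lower.

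Genes known to respond to PPARs or to coat lipid droplets gave 6 rises and 4 falls among 13 tested, with a median of 0.24. Among all tested genes 29.3% were higher and 29.1% lower. Hilpda, a hypoxia-induced lipid droplet protein that inhibits lipolysis, averaged 35.1 ± 1.4 CPM in MCKO and 10.2 ± 0.54 CPM in controls (log2 fold change 1.78, SE 0.067, adjusted p = 5.49e-08). Dgat2, which makes triglyceride, averaged 40.3 ± 2.2 CPM in MCKO and 15.2 ± 1.0 CPM in controls (1.41, SE 0.070). Pdk4, a kinase that inhibits pyruvate dehydrogenase, averaged 32.7 ± 0.61 CPM in MCKO and 17.7 ± 0.31 CPM in controls (0.88, SE 0.054). In the same libraries Afp and Hnf4a, markers of liver bud and endoderm, had log2 fold changes of -6.62 and -4.23, and Epcam and Sox17 of the same list had 2.64 and 2.24. Of the 11 tested markers of this kind 5 rose and 6 fell, with a median log2 fold change of -2.15. The list summed to 30.0 to 33.8 CPM in MCKO and 23.1 to 24.5 CPM in controls. Of this sum, Sox17 made up 17.1 to 20.3 CPM in MCKO and 3.67 to 4.70 CPM in controls. Sox17 is also known from endothelium, so neither its rise nor the list's sum is a measure of endoderm alone. The part of these markers in the values of the PPAR responsive and lipid droplet genes was not tested.

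Peroxisomal oxidation genes gave 3 rises and 5 falls among 15 tested, with a median of 0.08. Among all tested genes 29.3% were higher and 29.1% lower. The list had 5 rises without control replicate 2 or with at least 50 counts required in 3 libraries. Abcd3, a transporter of the peroxisomal membrane, fell by 0.50 (SE 0.045), and Hacl1, a lyase of alpha-oxidation, rose by 0.84 (SE 0.095). Among genes of fatty acid synthesis 9 of 14 fell and 3 rose, beside the same shares of all tested genes, with a median of -0.27. Elovl6, an elongase, averaged 53.9 ± 0.75 CPM in MCKO and 91.0 ± 2.1 CPM in controls (-0.76, SE 0.043), whereas Scd2, a stearoyl-CoA desaturase, averaged 1399 ± 42 CPM in MCKO and 997 ± 21 CPM in controls (0.49, SE 0.039).

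**Figure D5:**
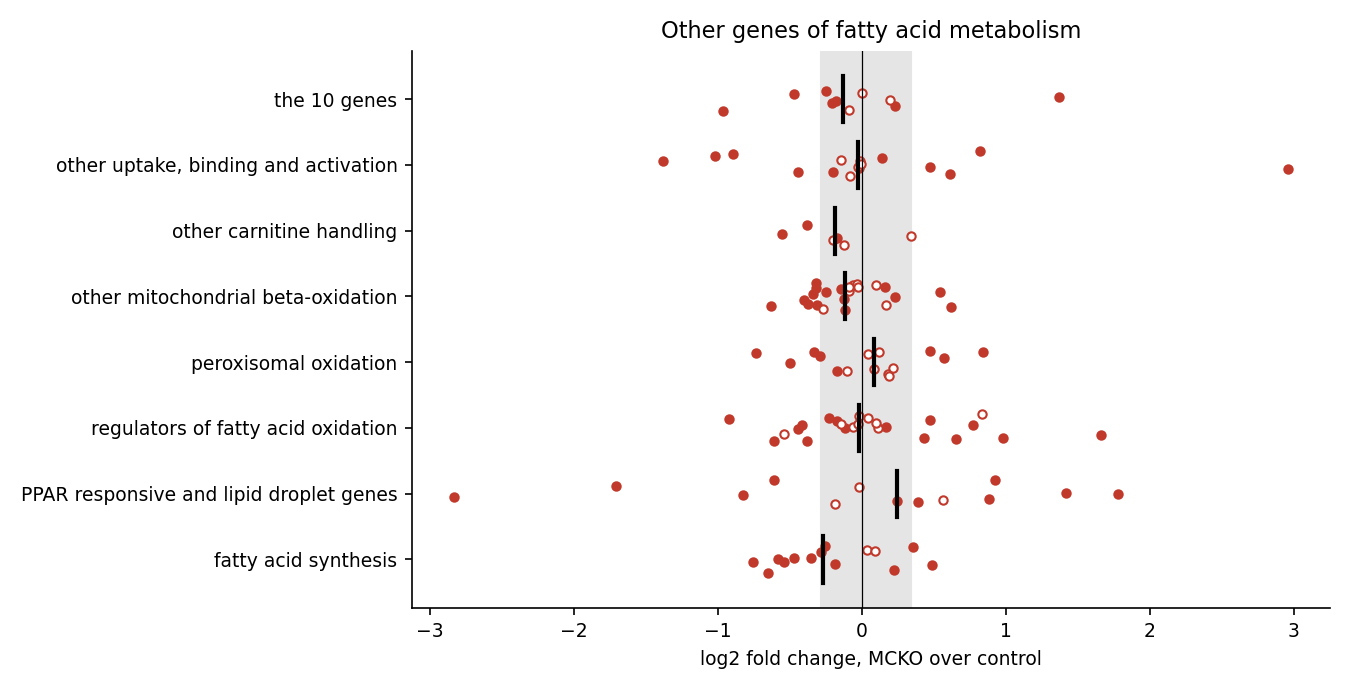
Log2 fold change, MCKO over control, of each tested gene of the 10 and of 7 other lists of fatty acid metabolism, filled where the adjusted p was under 0.05, with the list's median as a black line and the 25th to 75th percentile of all tested genes as a grey band. The genes of every list lie on both sides of 0, and every median is within the band, from -0.27 for synthesis to 0.24 for PPAR responsive and lipid droplet genes.

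Markers of heart muscle were set beside the 10 genes. Of 16, 6 rose and 2 fell, beside 29.3% higher and 29.1% lower among all tested genes, with a median of 0.04. Their summed level was 47960 to 50022 CPM in MCKO and 39326 to 43551 CPM in controls. The fallen pair was Myl2 and Nppa, of which Nppa was named after its value was seen, and Myl2, a ventricular myosin light chain, had a log2 fold change of -0.28 (SE 0.038). The count of falls was 1 with the replicate block and in 5 of the 6 fits that leave out a library, and 5 without control replicate 3. Epicardial markers (6 of 8 fell, 1 rose) and markers of mesenchyme and neural crest (9 of 10 fell) were mostly lower. The epicardial list summed to 464 to 516 CPM in MCKO and 242 to 253 CPM in controls, of which Krt19, a keratin, made up 403 ± 27 CPM in MCKO and 41.7 ± 3.2 CPM in controls. The mesenchyme list summed to 241 to 249 CPM in MCKO and 581 to 616 CPM in controls. None of these markers was at 0 in all libraries. The part of these cells in the lower Cpt1a, Cpt2 and Hadhb levels was not tested.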

How the data were processed

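The authors deposited whole-number estimated counts for each Ensembl gene, without normalisation. Per the submitters' processing notes kallisto and mm10 were used. Their version, the transcript set and the rounding were not given in the sources used. The kit was a stranded TruSeq mRNA one, per the labels' protocols. MCKO columns are named CKO and were matched to titles by the rest of the name. Symbols were found for 29857 IDs, and 2 of 224 list symbols were not found.

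Tests used edgeR 4.0.16 (R 4.3.3) with TMM after filterByExpr at its defaults, and robust quasi-likelihood with group as the only term, 2-sided, Benjamini-Hochberg over 14697 genes, called under 0.05. SE is the log2 fold change over the square root of F. The fit was tested on simulated data. DESeq2 1.42.0, limma 3.58.1 and scipy 1.17.1 served alternatives and permutation tests. A count of 0 allows up to 0.156 CPM (3 counts) in the shallowest library, for counting error only. Sequence sharing used GENCODE M21 transcripts.

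The 10 genes and all lists were chosen with earlier results of these data known. Named are the 10 genes, Cdc42 and up to 4 called genes of each list by smallest adjusted p, plus genes marked in the text as named after their values were seen, of which not all are printed, 1 result being left out as not reported here.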

Additional observations from a re-analysis of the deposited data

How the results depend on the processing

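The 7 calls among the 10 genes stayed in the same direction in each of 14 alternative fits, and the only call lost was that of Hadha without MCKO replicate 2. Acadl was called as well in 2 of the fits and Fabp3 in 1, and Acadm, never called, kept its sign in 8. The fits called 7452 to 8766 genes of the whole table, 7452 to 8695 of these with each library left out in turn. At least a 2-fold change left 1619 genes of the table and 1 of the 10 (1 higher, 0 lower), by construction fewer. The 10 genes had a median of -0.195 with library totals only, where the median of all tested genes was -0.061, and -0.144 to -0.121 with each library left out. The replicate block gave 7765 calls in the table and 7 among the 10 genes. Same-numbered libraries did not deviate together (correlations -0.064, 0.044 and -0.242), so they were not taken as pairs. Depth limits Cpt1a most, with 127 to 340 counts per library.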
